A study of Mus musculus with 9 samples.

Results

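Rab GTPases were read on 9 Affymetrix Mouse 430 2.0 arrays, an oligonucleotide platform on which a gene is measured by 1 or more probe sets. The members were the probe sets that the platform annotation gave to a single symbol made of Rab, a number and at most 1 letter, with Rab3a and Rab3c set aside. They numbered 125 of 45101 probe sets and stood for 57 of the 18193 genes with a single symbol. A filter on dim probe sets left 106 of the 125 and 51 of the 57 genes for testing, out of 27022 probe sets and 12983 genes. There were 3 arrays of spinal cord from wild-type mice, 3 of laser-captured motor neurons from wild-type mice and 3 of laser-captured motor neurons from SOD1-mutant mice. In laser capture, single cells are picked from a section by a laser under the microscope. SOD1 is a superoxide dismutase whose mutations are a cause of familial amyotrophic lateral sclerosis, in which motor neurons degenerate. The labels give neither the SOD1 allele, the age, the meaning of the code D28 in the titles, how the neurons were recognised nor whether arrays came from separate animals, so p-values reflect variation among these arrays, some of which may be technical. Ventral cord is named as the source of all arrays, but the cord arrays are described as total cord.

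Rab proteins are small GTPases that mark membranes and steer vesicle traffic. An exchange factor loads a Rab with GTP on its target membrane, where it recruits effectors such as tethers and motor adaptors; a GTPase-activating protein then switches it off, and the dissociation inhibitor GDI takes it back into the cytosol. Each organelle carries its own set, and in neurons with long axons Rabs of the early, late and recycling endosome serve the transport of receptors and trophic signals, while others drive Golgi export and regulated secretion.

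All arrays had been scaled to a trimmed mean of 2500, and their median signals were 556 to 582 for cord, 269 to 313 for wild-type and 274 to 366 for mutant motor neurons. In wild-type motor neurons against cord, 5 of 6 motor neuron markers rose, all but Chat, and their summed signal was 9544 to 15797 in cord and 113033 to 119770 in the neurons. Summed signals of astrocyte markers were 201344 to 217365 in cord and 22821 to 37316 in the neurons, those of oligodendrocyte markers 452391 to 539919 and 237585 to 250328, and those of microglia markers 36160 to 39519 and 2765 to 3166. All 6 astrocyte, 5 oligodendrocyte, 5 microglia, 5 endothelial and 4 inhibitory interneuron markers tested fell with the authors' scaling, and 6, 2, 5, 3 and 2 of them were called lower under all 3 scalings described below. For the Gapdh control transcript, the 3′ probe set gained 4.31 on the log2 scale over the 5′ probe set in the neurons relative to cord (two-sided exact permutation p = 0.1, the smallest that 3 against 3 arrays can give), so the 5′ end of this transcript lost signal relative to its 3′ end. Neither the glial signal of cord nor this shift towards the 3′ end was tested for its part in the Rab results. In such bulk RNA, fewer cells of a type and less RNA per cell cannot be told apart.

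Between cord and wild-type motor neurons, the Rab family split between members that rose and members that fell. Of the 51 genes tested on their brightest probe set, 16 were higher and 22 lower (limma, adjusted p under 0.05), or 31.4% and 43.1%, where 31.1% and 36.1% of all genes tested were higher and lower. The median log2 change of the Rab genes was -0.27, beside -0.10 for all genes. The split moved with the scaling. Centring each array on its median raised the median of all genes to 0.81 and gave 28 Rab genes higher and 6 lower (beside 57.8% and 15.3% of all genes) with a median of 0.64, and quantile normalization raised it to 0.26 and gave 13 higher and 18 lower (beside 42.2% and 26.2%) with a median of -0.08. Called under all 3 scalings were 11 genes higher (Rab2b, Rab6b, Rab30, Rab11a, Rab14, Rab22a, Rab3b, Rab3d, Rab39, Rab39b and Rab40c) and 6 lower (Rab5c, Rab11b, Rab7b, Rab27b, Rab8b and Rab34), where 28.7% and 15.3% of all genes were. Log2 changes below are with the authors' scaling unless another is named, and are differences of log2(signal + 20.3), which understates the change of dim probe sets.

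**Figure D1:**
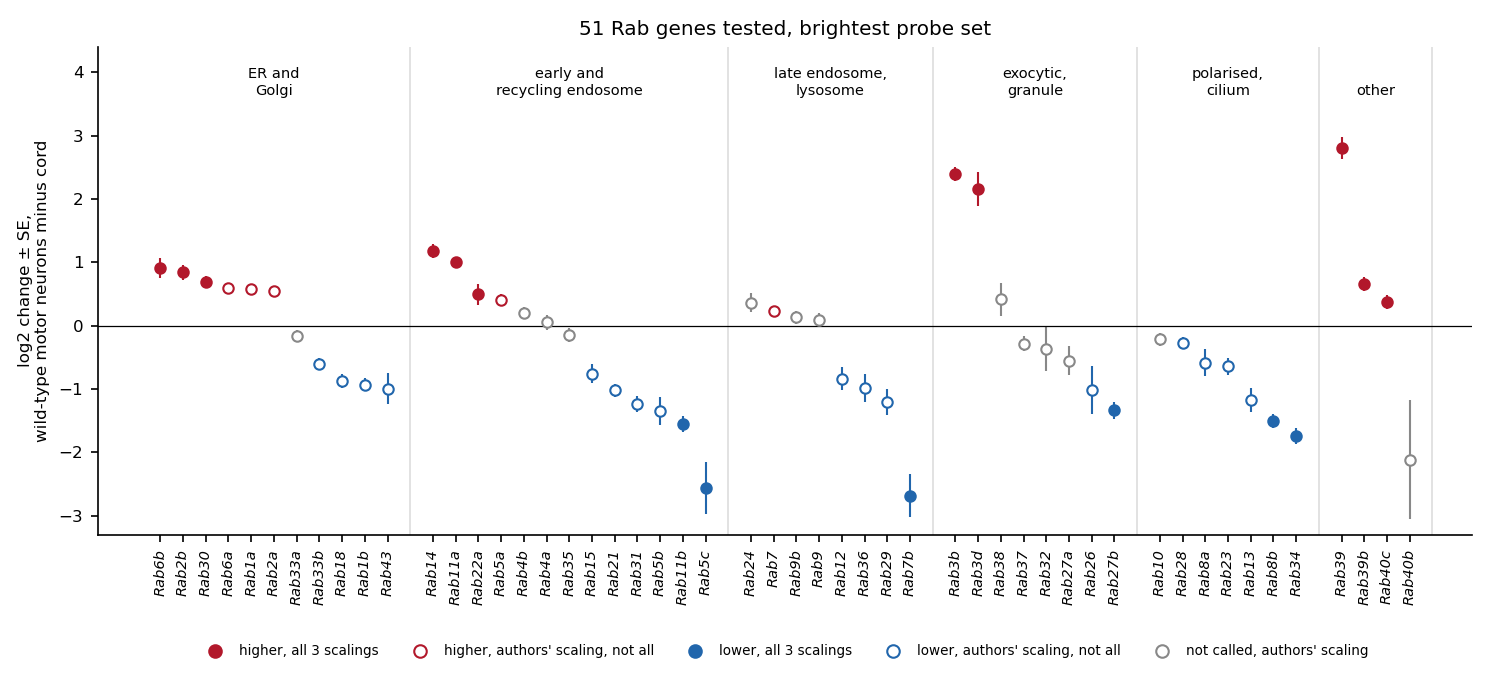
The vertical axis is the log2 change, wild-type motor neurons minus wild-type cord, of the brightest probe set of each of the 51 Rab genes tested, grouped by role. Points are limma estimates from 3 arrays a group and bars are standard errors, with filled points for the 17 genes called in 1 direction under all 3 scalings. The highest point is Rab39 at 2.80 and the lowest Rab7b at -2.68, and no gene of the polarised transport and cilium group lies above 0.

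The counts of each role group stand beside the 31.1% higher and 36.1% lower among all genes, and no count was tested as particular to a role. Among the 11 Rabs of the endoplasmic reticulum and Golgi, 6 were higher and 4 lower with a median log2 change of 0.54, which was 1.45 after centring and 0.03 after quantile normalization. Rab6b, the neuronal form of the Golgi Rab of retrograde transport, had signals of 41442, 42149 and 40417 on the cord arrays, 65880.0, 103418 and 69148 on the wild-type motor neuron arrays and 76600.4, 122661 and 80497 on the mutant motor neuron arrays. Every neuron array lay above every cord array, and the second array of each neuron group was the brightest. Rab6b rose by 0.91 ± 0.15 (SE, adjusted p = 0.000786), or 1.88-fold. Rab2b, a Golgi Rab, read 5967, 5082 and 5669 in cord, 8769, 11256 and 10184 in wild-type neurons and 14623, 17198 and 15868 in mutant neurons on its brightest probe set. The 3 groups did not overlap, and the change from cord to wild-type neurons was 0.85 ± 0.12 (SE, adjusted p = 0.000259). Rab30, also of the Golgi, rose by 0.69 ± 0.09 (SE, adjusted p = 0.000177).

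Rab1a, which controls transport from the endoplasmic reticulum to the Golgi, had 47996, 50039 and 48614 in cord and 71377, 76101 and 71360.4 in wild-type motor neurons. All neuron arrays were above all cord arrays, and the change of 0.58 ± 0.064 (SE, adjusted p = 6.14e-05) was 0.035 (adjusted p = 0.578) after quantile normalization. Rab2a, which also acts between the endoplasmic reticulum and the Golgi, read 37049.5, 39236 and 38388 in cord and 53282, 60974 and 53019 in wild-type neurons, a change of 0.54 ± 0.077 (SE, adjusted p = 0.000291) that was 0.07 (adjusted p = 0.333) after quantile normalization. Rab6a behaved alike, at 0.60 (adjusted p = 0.000258) and 0.12 (adjusted p = 0.193). The calls of Rab1a, Rab2a and Rab6a thus rested on the scaling. The 4 genes lower were Rab1b at -0.93 (adjusted p = 5.99e-05), Rab18, a Rab of lipid droplets and the endoplasmic reticulum, at -0.87 (adjusted p = 0.000155), Rab33b at -0.60 (adjusted p = 0.000274) and Rab43 at -0.99 (adjusted p = 0.00598). After centring, none of these 4 was called lower, and Rab33b was called higher by 0.31 (adjusted p = 0.0407).

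The early and recycling endosome held 13 tested genes of 16, with 4 higher, 6 lower and a median log2 change of -0.15. That median was 0.76 after centring and -0.06 after quantile normalization. Rab14, which works between the trans-Golgi network and endosomes, read 38179, 39506 and 34579.6 in cord, 75477, 79615 and 100638 in wild-type neurons and 93058, 96187 and 91844 in mutant neurons on its brightest probe set. Both neuron groups lay above cord on every array, and the change was 1.18 ± 0.11 (SE, adjusted p = 2.55e-05), or 2.26-fold. Rab11a, the Rab of the recycling endosome, had 19731, 18438 and 18121 in cord, 37469.6, 39728 and 35540.4 in wild-type neurons and 37264, 24084 and 32129 in mutant neurons, a rise of 1.001 ± 0.077 (SE, adjusted p = 6.89e-06) in the wild type. Its second probe set rose by 0.42 (adjusted p = 0.00338) with the authors' scaling but not under all 3. Rab11b, the close relative of Rab11a, went the other way on its brightest probe set.

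Rab11b read 16245, 17279 and 16999 in cord, 5137, 5229 and 6969 in wild-type neurons and 5469, 7005 and 4322 in mutant neurons. No neuron array reached the lowest cord array, and Rab11b fell by 2.94-fold, a log2 change of -1.55 ± 0.13 (SE, adjusted p = 9.41e-06). Neither of its 2 dimmer probe sets was called, at 0.071 (adjusted p = 0.788) and -0.73 (adjusted p = 0.107), and the first was higher at 0.98 (adjusted p = 0.00217) after centring and 0.88 (adjusted p = 0.00553) after quantile normalization. With the probe sets of Rab11b averaged, its change was -0.74 (adjusted p = 0.00251). The 3 forms of Rab5, the Rab of early endosome fusion, also parted. Rab5a had 31291, 26392 and 28730.5 in cord and 36976, 41364 and 35876 in wild-type neurons, a change of 0.40 ± 0.09 (SE, adjusted p = 0.00393) with the authors' scaling that was -0.062 (adjusted p = 0.56) after quantile normalization. Rab5c had 8216, 8938 and 8814 in cord, 2587, 657 and 1784 in wild-type neurons and 3681, 2153 and 2836 in mutant neurons. All 6 neuron arrays were below all cord arrays, with the second wild-type neuron array far below its group, and Rab5c fell by 5.89-fold, a log2 change of -2.56 ± 0.41 (SE, adjusted p = 0.000597). Rab5b was lower, at -1.35 (adjusted p = 0.000646), and after centring its change was -0.44 (adjusted p = 0.114).

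Rab22a, which feeds cargo from early endosomes into recycling, had 3483, 3729 and 3584 in cord and 6107, 3953 and 5420.3 in wild-type neurons, a change of 0.49 ± 0.16 (SE, adjusted p = 0.0239). Its second wild-type neuron array stood nearest to cord. Without cord array 1, 2 or 3, the adjusted p of Rab22a was 0.0705, 0.0522 and 0.0664, and without wild-type neuron array 1 or 3 it was 0.0562 and 0.0858. Without the intensity trend of limma it was 0.0557. Rab31, which carries cargo from the trans-Golgi network to endosomes, had 11759.9, 12368 and 12113 in cord, 4898, 6129 and 4465 in wild-type neurons and 7434, 8283 and 9605 in mutant neurons. Both neuron groups lay below cord without overlap, and the change to the wild type was -1.24 ± 0.12 (SE, adjusted p = 3.4e-05), which became -0.33 (adjusted p = 0.0501) after centring. Rab21 and Rab15, lower at -1.02 (adjusted p = 3.13e-05) and -0.76 (adjusted p = 0.00166), were not called after centring. Rab4a, Rab4b and Rab35, Rabs of fast recycling, were not called with the authors' scaling, at 0.056 (adjusted p = 0.691), 0.21 (adjusted p = 0.0807) and -0.15 (adjusted p = 0.281). After centring each was called higher, at 0.96 (adjusted p = 0.000524), 1.11 (adjusted p = 1.51e-05) and 0.76 (adjusted p = 0.000255). None of them was called after quantile normalization. The other tested probe set of Rab4a was at -1.68.

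Of the 8 Rabs of the late endosome, lysosome and autophagy, 1 was higher and 4 lower, with a median log2 change of -0.37. That median was 0.53 after centring and -0.28 after quantile normalization. Rab7, the Rab of late endosomes and of their transport along axons, had 30854, 32320.2 and 29925 in cord, 35366, 36903 and 37546 in wild-type neurons and 42035, 47457 and 45552 in mutant neurons on its brightest probe set. The groups did not overlap, but the step from cord to wild-type neurons was small, 0.24 ± 0.069 (SE, adjusted p = 0.014), and was -0.23 (adjusted p = 0.00785) in the other direction after quantile normalization. Without cord array 1 or 3 its adjusted p was 0.0543 and 0.0647, and without wild-type neuron array 3 it was 0.053. Without the intensity trend it was 0.0854. The other Rab7 probe set had 11179.8, 12491 and 11149 in cord and 2955, 2108 and 2518 in wild-type neurons, a log2 change of -2.20 ± 0.14 (SE, adjusted p = 2.09e-06). The 2 probe sets of Rab7 were thus called in opposite directions.

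Rab7b, a relative of Rab7 in endosome-to-Golgi traffic, had 1519, 3635 and 2964 in cord, 309, 506 and 344 in wild-type neurons and 495, 460.0 and 396 in mutant neurons. The cord arrays varied, yet the lowest of them was above every neuron array, and Rab7b fell by 6.43-fold, a log2 change of -2.68 ± 0.34 (SE, adjusted p = 0.000146). Its other tested probe set gave -2.65 (adjusted p = 9.75e-05), the smallest span of any Rab gene with 2 or more tested probe sets. Rab29, which recruits the kinase Lrrk2 to membranes, was lower at -1.21 (adjusted p = 0.000688), as were Rab12 at -0.83 (adjusted p = 0.00296) and Rab36 at -0.99 (adjusted p = 0.00384), and none of these 3 was called after centring. Rab9 and Rab9b, which return receptors to the Golgi, and Rab24, linked to autophagy, were not called with the authors' scaling, at 0.085 (adjusted p = 0.505), 0.13 (adjusted p = 0.27) and 0.37 (adjusted p = 0.064). After centring each was called higher, at 0.99 (adjusted p = 0.000332), 1.04 (adjusted p = 0.000119) and 1.27 (adjusted p = 0.000313).

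The 8 Rabs of exocytosis, lysosome-related organelles and secretory granules held 2 genes higher and 2 lower, with a median log2 change of -0.33. That median was 0.58 after centring and 0.42 after quantile normalization. Rab3b, a Rab of regulated exocytosis, had 1990.2, 1949 and 2350.3 in cord, 10201, 11912 and 11169 in wild-type neurons and 9792, 6287 and 9208 in mutant neurons. Every neuron array was above every cord array, with the second mutant array the lowest of the neuron arrays. Rab3b rose by 2.39 ± 0.12 (SE, adjusted p = 6.86e-07), or 5.26-fold. Rab3d, best known from secretory granules of glands, had 924, 446 and 757 in cord, 3817, 2865 and 2720.3 in wild-type neurons and 1781, 3509 and 3344 in mutant neurons. No neuron array overlapped cord, and Rab3d rose by 2.16 ± 0.27 (SE, adjusted p = 0.000144), or 4.46-fold. All 4 of its probe sets were called higher under all 3 scalings, with changes of 1.41 to 2.16.

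Rab27b, which docks secretory vesicles and exosome precursors, had 3996, 4701 and 4321 in cord, 1485, 1760.0 and 1873 in wild-type neurons and 2928, 2679 and 2712 in mutant neurons. The groups formed 3 separate steps with cord the highest, and the fall in the wild type was 2.53-fold, a log2 change of -1.34 ± 0.14 (SE, adjusted p = 4.17e-05). Rab27a, its relative, was at -0.55 (adjusted p = 0.0555). Rab26, a Rab of synaptic and secretory vesicles, was lower at -1.02 (adjusted p = 0.0392) with the authors' scaling and at -0.11 (adjusted p = 0.79) after centring. Rab37, Rab32 and Rab38, which serve mast cell granules and melanosomes, were not called with the authors' scaling, at -0.28 (adjusted p = 0.0512), -0.37 (adjusted p = 0.365) and 0.42 (adjusted p = 0.185). Rab38 was called higher after centring, at 1.33 (adjusted p = 0.0016), and after quantile normalization, at 1.27 (adjusted p = 0.0018). Rab37 was called higher after centring only, at 0.63 (adjusted p = 0.00244).

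Of the 7 Rabs of polarised transport and the cilium, 0 were called higher and 6 lower by limma with the authors' scaling (beside 31.1% and 36.1% of all genes), and the changes of all 7 were below 0. Their median log2 change was -0.64, which was 0.27 after centring and -0.44 after quantile normalization. After centring 2 were called higher (Rab10 and Rab28) and 2 lower. Rab34, which acts in cilium formation, had 3850.4, 3777 and 3575 in cord, 1064, 1158 and 1086 in wild-type neurons and 692, 1468 and 1368 in mutant neurons. The wild-type arrays lay close together and far below cord, and Rab34 fell by 3.34-fold, a log2 change of -1.74 ± 0.13 (SE, adjusted p = 6.01e-06). Rab8b, of post-Golgi transport to the plasma membrane, had 9968, 9951 and 10819 in cord, 3626, 4035 and 3186 in wild-type neurons and 4987, 6674 and 6977 in mutant neurons. Rab8b fell by 2.83-fold, a log2 change of -1.50 ± 0.11 (SE, adjusted p = 6.24e-06), and its mutant arrays stood between the other 2 groups without overlap. Rab13, of tight junctions, was lower at -1.18 (adjusted p = 0.000636), Rab23, a regulator of Hedgehog signalling, at -0.64 (adjusted p = 0.00315), Rab8a at -0.58 (adjusted p = 0.0372) and Rab28 at -0.27 (adjusted p = 0.0233). None of these 4 was called lower after centring, and Rab28 was then called higher by 0.64 (adjusted p = 0.0012).

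Of the 7 members in no role list, 4 were tested and 3 were higher under all scalings. Rab39, a Rab linked to the Golgi and to autophagy, had 524, 430.0 and 489.9 in cord, 3668, 3198 and 3571 in wild-type neurons and 3957, 5266 and 3687 in mutant neurons. Both neuron groups lay far above cord without overlap, and the rise of 2.80 ± 0.17 (SE, adjusted p = 1.72e-06), or 6.99-fold, was the largest of the 51 genes in this comparison. Rab39b, whose human counterpart is mutated in an X-linked intellectual disability, rose by 0.66 ± 0.10 (SE, adjusted p = 0.000572). Rab40c, which joins a Rab domain to the SOCS box of a ubiquitin ligase, rose by 0.38 ± 0.11 (SE, adjusted p = 0.0172). Its relative Rab40b was dim and scattered in the neurons, with 1579.7, 1098 and 1475 in cord, 962, 32.3 and 617 in wild-type neurons and 202, 12.7 and 133 in mutant neurons, and its change of -2.12 ± 0.93 (SE, adjusted p = 0.0746) in the wild type was not called. It lay above background on 2 of 3 wild-type and 1 of 3 mutant neuron arrays.

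**Figure D2:**
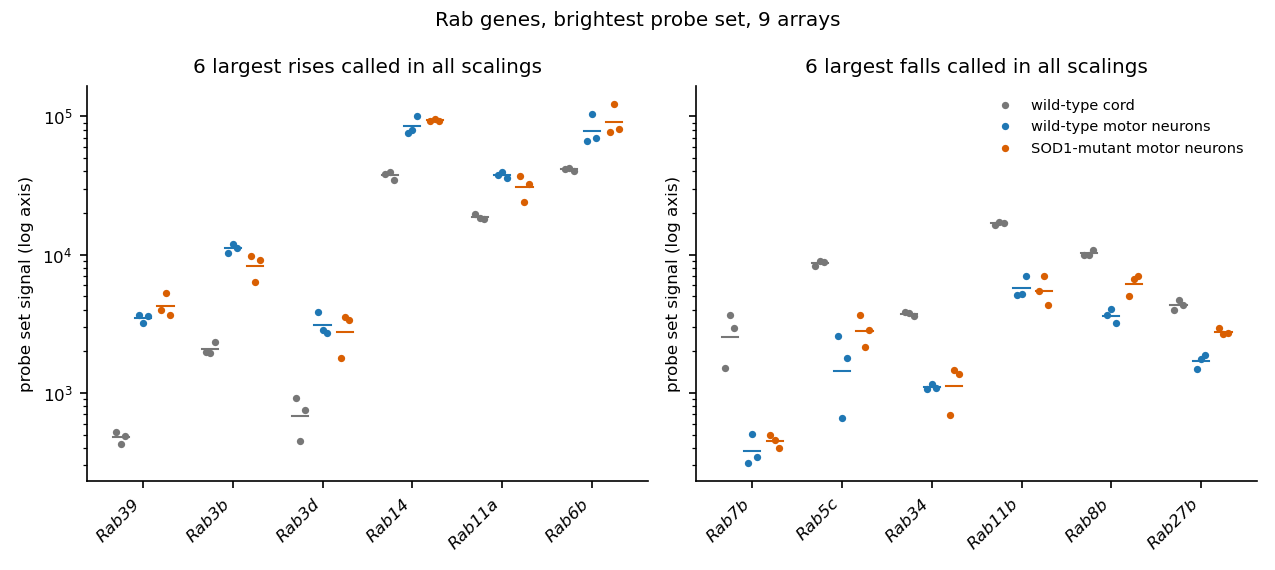
The vertical axis is the probe set signal on a log scale for the 6 Rab genes with the largest rises (left) and the 6 with the largest falls (right) from cord to wild-type motor neurons among those called under all 3 scalings. Each dot is 1 array, 3 a group, and each line is the geometric mean of its group. Rab39 runs from 430.0 to 524 in cord and from 3198 to 3668 in wild-type neurons, and the mutant dots of Rab8b and Rab27b lie between cord and wild-type neurons.

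The 6 genes left untested were Rab17, Rab19, Rab20, Rab25, Rab42 and Rab44. Background was set per array from 27 bacterial control probe sets, at their 95th percentile, and ran from 131 to 244. Rab20, of hypoxia-responsive endosomes and phagosomes, and Rab25, an epithelial relative of Rab11a, were above background on 0 of 9 arrays. Rab44 was above it on 1 array and Rab17, Rab19 and Rab42 on 4 each. Rab42 had 425, 313 and 509 in cord and 252, 22.1 and 87.4 in wild-type neurons, above background on all 3 cord arrays and 1 wild-type neuron array.

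Promoter sequence was looked up for the 2 genes with the largest rises and for the Rab11 pair, since these relatives moved in opposite directions on their brightest probe sets. The RefSeq table for assembly GRCm38.p6 held a promoter for 46 of the 57 members, and the 250 bases before the first listed start were used. Each sequence runs 5′ to 3′ on the strand of the gene, and capitals mark matches on either strand to the GC box GGGCGG, the CCAAT box CCAAT, the cyclic AMP response element TGACGTCA, the E-box CACGTG or the TATA box TATAAA. They are Rab39 at chr9:53706233-53706482 on the minus strand, Rab3b at chr4:108878820-108879069 on the plus strand, Rab11a at chr9:64737757-64738006 on the minus strand and Rab11b at chr17:33760487-33760736 on the minus strand.
Rab39: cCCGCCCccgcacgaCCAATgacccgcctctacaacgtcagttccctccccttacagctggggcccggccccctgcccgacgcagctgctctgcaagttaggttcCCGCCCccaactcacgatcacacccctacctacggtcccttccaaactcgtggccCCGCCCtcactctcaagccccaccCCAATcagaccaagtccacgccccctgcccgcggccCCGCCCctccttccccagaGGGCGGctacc
Rab3b: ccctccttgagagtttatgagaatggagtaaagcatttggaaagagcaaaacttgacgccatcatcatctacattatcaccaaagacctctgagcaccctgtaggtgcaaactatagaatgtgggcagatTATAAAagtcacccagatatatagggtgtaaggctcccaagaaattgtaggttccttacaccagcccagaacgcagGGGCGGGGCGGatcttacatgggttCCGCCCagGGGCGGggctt
Rab11a: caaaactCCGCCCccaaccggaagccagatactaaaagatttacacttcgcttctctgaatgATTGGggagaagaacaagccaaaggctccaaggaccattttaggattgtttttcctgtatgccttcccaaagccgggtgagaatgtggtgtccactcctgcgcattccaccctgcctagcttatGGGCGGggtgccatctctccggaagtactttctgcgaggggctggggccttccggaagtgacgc
Rab11b: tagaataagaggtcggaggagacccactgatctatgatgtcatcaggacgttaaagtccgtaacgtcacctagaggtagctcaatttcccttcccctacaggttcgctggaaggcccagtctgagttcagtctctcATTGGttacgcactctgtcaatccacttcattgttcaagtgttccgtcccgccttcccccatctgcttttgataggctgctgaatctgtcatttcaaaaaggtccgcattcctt

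Rab39, the gene of the largest rise, held 5 GC boxes and 2 CCAAT boxes in these bases. Rab3b held 4 GC boxes, of which the first pair overlap, and 1 TATA box. Rab11a, which rose, held 2 GC boxes and 1 CCAAT box. Rab11b, which fell on its brightest probe set, held 1 CCAAT box and 0 GC boxes. Over the 46 members, 31 promoters (67.4%) held a GC box, 20 (43.5%) a CCAAT box, 4 (8.70%) an E-box, 4 (8.70%) a TATA box and 2 (4.35%) a cyclic AMP response element. Over the 32851 promoter windows of this length in the table the shares were 32.7%, 33.8%, 6.02%, 12.4% and 1.55%, and over 17491 protein-coding genes, taken once each, 42.7%, 36.3%, 6.64%, 12.4% and 2.01%. Median GC content was 61.2% in the members and 55.2% in protein-coding genes. The TATA box was found in Rab3b, Rab7, Rab39b and Rab42, and the cyclic AMP response element in Rab5a and Rab25. These matches describe the letters in the window and were not tested against expression.

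Close relatives were then set side by side. For 15 pairs chosen by their names after the values had been seen, the log2 difference between the 2 genes was taken on each array and compared between the groups by exact permutation over the 6 arrays (two-sided, smallest p 0.1). In 11 of the 15 pairs the difference separated the groups completely (exact p = 0.1), and in 6 the 2 genes had changes of opposite sign. These are 73.3% and 40% of the pairs, beside 72.2% and 49.8% of all pairs of genes tested, so the counts are not particular to relatives. Rab11a changed by 2.55 more than Rab11b, Rab5a by 2.96 more than Rab5c and 1.75 more than Rab5b, Rab7 by 2.92 more than Rab7b, and Rab1a by 1.51 more than Rab1b, all on the log2 scale with an exact permutation p = 0.1. Such a difference within arrays does not move with centring, but it does with quantile normalization, after which Rab5a and Rab7 were below 0 like Rab5b, Rab5c and Rab7b. The differences were then 2.34 for Rab5a minus Rab5c, 0.37 for Rab5a minus Rab5b, 1.71 for Rab7 minus Rab7b, 0.88 for Rab1a minus Rab1b and 2.36 for Rab11a minus Rab11b. The other pair with opposite signs was Rab40b and Rab40c, where Rab40b minus Rab40c was -2.49. The changes had the same sign, with groups that still separated, for Rab39 minus Rab39b (2.15), Rab8a minus Rab8b (0.92), Rab27a minus Rab27b (0.79), Rab33a minus Rab33b (0.45) and Rab2a minus Rab2b (-0.31). Each gene was read on its brightest probe set, and for Rab7 the other gave -2.20. Neither dimmer probe set of Rab11b was called with the authors' scaling, and the higher of them gave 0.071. The 4 pairs that did not separate by the exact permutation test were Rab3b and Rab3d (0.24, p = 0.7), Rab4a and Rab4b (-0.15, p = 0.6), Rab6a and Rab6b (-0.32, p = 0.3) and Rab9 and Rab9b (-0.049, p = 0.6).

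How far a gene's change depended on the probe set was measured in the 30 Rab genes with 2 or more tested probe sets. The span between their highest and lowest log2 change had a median of 1.34, from 0.034 in Rab7b to 4.35 in Rab18, and exceeded 2 in 8 genes. In Rab18 the brightest probe set gave -0.87 and the other, with 8189, 7788 and 7059 in cord and 236, 174 and 154 in wild-type neurons, gave -5.22 ± 0.20 (SE, adjusted p = 2.54e-07). In Rab37 the 2 gave -0.28 (adjusted p = 0.0512) and -3.92 (adjusted p = 5.69e-05), and in Rab28 -0.27 (adjusted p = 0.0233) and -3.20 (adjusted p = 8.81e-07). The brightest probe set was the highest of its gene in 17 of the 30. Over all probe sets of the family, 26 were called higher and 48 lower of 106 (beside 24.0% and 41.5% of all probe sets tested), with 19 and 16 under all scalings (beside 22.1% and 19.4%).

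Among the 22 Rab genes with 2 or more probe sets called, 6 were called both higher and lower, beside 1291 of 3722 (34.7%) among all genes. They were Rab2a, Rab2b, Rab6b, Rab7, Rab14 and Rab22a, all of which count as higher on the brightest probe set. In Rab14, 2 of 7 probe sets were higher and 2 lower, from 2.03 (adjusted p = 4.94e-06) on a probe set with 943, 1239 and 1007 in cord and 4384, 4353 and 4409 in wild-type neurons, to -1.48 (adjusted p = 0.0239) on another. The brightest Rab14 probe set carries the suffix s, by which the maker marks probes that may match more than 1 transcript. Those of Rab2a, Rab4a and Rab24 carry it too, and the suffix x on that of Rab38 was grouped with it. In Rab2b, 1 probe set of 5 was higher and 3 lower, down to -1.96 (adjusted p = 3.36e-05), and the mean over all its probe sets was -0.57. In Rab22a, 1 of 4 was higher and 3 lower, down to -2.20 (adjusted p = 0.000328), with a mean of -0.70. In Rab6b, 3 of 4 were higher and 1 was lower at -1.29 (adjusted p = 5.13e-05). The direction of Rab2a, Rab2b, Rab7 and Rab22a turned when the average over probe sets replaced the brightest, with -0.089 for Rab2a and -0.98 for Rab7. With that average Rab14 and Rab6b were not called, at 0.086 (adjusted p = 0.527) and 0.30 (adjusted p = 0.0773).

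**Figure D3:**
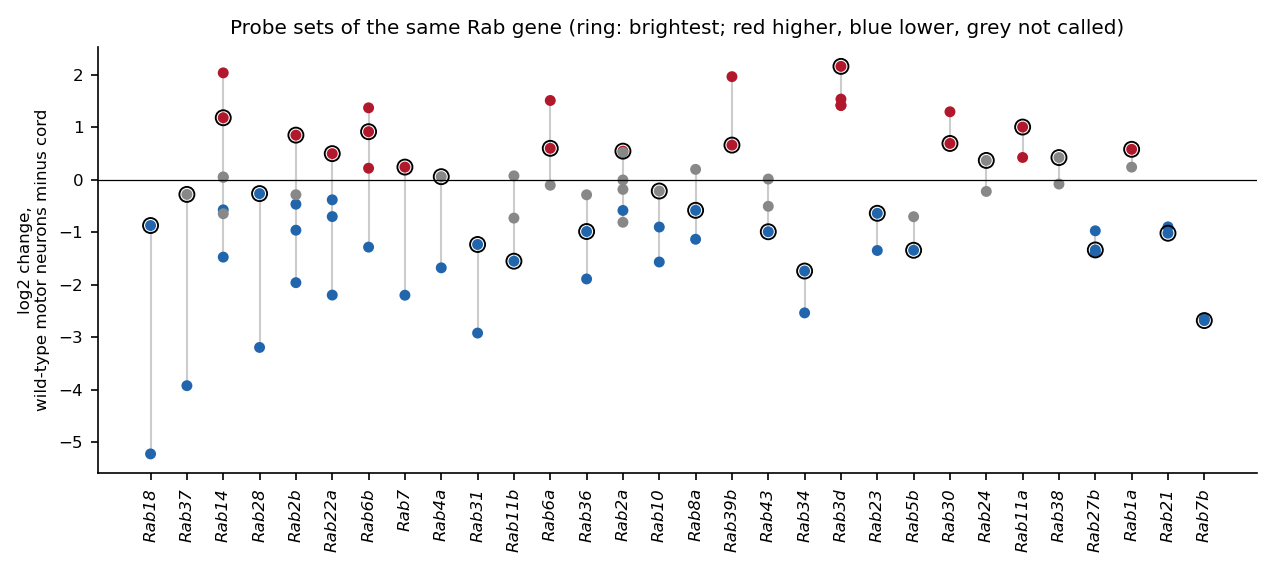
The vertical axis is the log2 change, wild-type motor neurons minus cord, of each tested probe set of the 30 Rab genes with 2 or more, ordered by span. Each dot is 1 probe set estimated from 3 arrays a group, a ring marks the brightest, red and blue mark calls higher and lower with the authors' scaling and grey no call. Rab18 spans -5.22 to -0.87 and Rab14 -1.48 to 2.03.

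SOD1-mutant and wild-type motor neurons were compared to ask which Rab genes differ in the mutant. With limma on the 6 neuron arrays, 0 of 51 Rab genes were called higher and 0 lower at an adjusted p under 0.05, where 0.169% and 0.0847% of all genes were. Of the 106 Rab probe sets, 0 were called, beside 41 higher and 19 lower of all 27022. An unadjusted limma p under 0.05 was reached by 11 Rab probe sets higher and 12 lower. The share over all probe sets was not taken for this rule, so these counts cannot be read as particular to Rabs. At an unadjusted p under 0.05, 8 Rab genes were higher (15.7%, beside 8.23% of all genes) and 6 lower (11.8%, beside 8.57%). The log2 changes ran from -1.62 in Rab40b, which was above background on 1 of 3 mutant arrays, to 0.95 in Rab5c with a median of 0.07, beside -0.01 for all genes. All 3 mutant arrays lay above all wild-type arrays in 9 Rab genes (17.6%, beside 11.6%) and below them in 8 (15.7%, beside 12.8%). In a further fit all 9 arrays shared 1 estimate of the spread. The spread of the cord arrays entered it, so its adjusted p-values do not rest on the neuron arrays alone. With that fit 4 Rab genes were higher (7.84%, beside 2.76%) and 1 lower (1.96%, beside 2.33%).

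Those 5 genes were also the 5 of smallest p among the Rabs. Rab2b was higher in the mutant by 0.66 ± 0.15 (SE, unadjusted p = 0.00106, adjusted p = 0.109, or 0.0211 with all 9 arrays), its mutant arrays at 14623, 17198 and 15868 against 8769, 11256 and 10184. Of its 4 other probe sets, 1 was also above the wild type on every mutant array, at 4981, 3858 and 4598 against 3589, 3609 and 3462, and the mean change over all 5 was -0.10 (adjusted p = 0.837). Rab8b was at 0.77 ± 0.19 (adjusted p = 0.128, or 0.0224), Rab31 at 0.71 ± 0.18 (0.132, or 0.0238), and Rab27b at 0.70 ± 0.20 (0.151, or 0.0293), the second value of each with all 9 arrays. The other tested probe set of Rab31 was at -0.50, and the mean of both was 0.11 (adjusted p = 0.853). For Rab8b, Rab31 and Rab27b the mutant value lay between cord and the wild type on every mutant array. Rab33a, a relative of Rab33b, was lower in the mutant at -0.55 ± 0.14 (adjusted p = 0.134, or 0.0231), with 8234, 8647 and 9893 in mutant and 12544, 13253 and 13359 in wild-type neurons and 14085, 15621 and 13962 in cord. Its mutant arrays were the lowest of the 9.

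Summed glial marker signals differed between the same neuron groups, though few single markers were called. Limma called 1 of 6 astrocyte, 0 of 5 oligodendrocyte and 0 of 5 microglia markers tested. The summed astrocyte markers were 50894 to 60104 in mutant and 22821 to 37316 in wild-type neurons, with Gja1, the astrocyte connexin, higher in the mutant by 1.25 (adjusted p = 0.017). The oligodendrocyte sums were 273647 to 306986 against 237585 to 250328 and the microglia sums 3958 to 4707 against 2765 to 3166, without overlap, and Aif1 was above background on no neuron array. Motor neuron markers summed to 86820 to 97812 in the mutant and 113033 to 119770 in the wild type. Endothelial and interneuron sums overlapped between the groups. Rab8b, Rab31 and Rab27b were each higher in cord than in the wild-type neurons, as were the glial markers, and the part of glial signal in their mutant values was not tested. The 3′ to 5′ log2 ratio of Gapdh was 0.46 higher in the mutant (exact permutation p = 0.2).

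**Figure D4:**
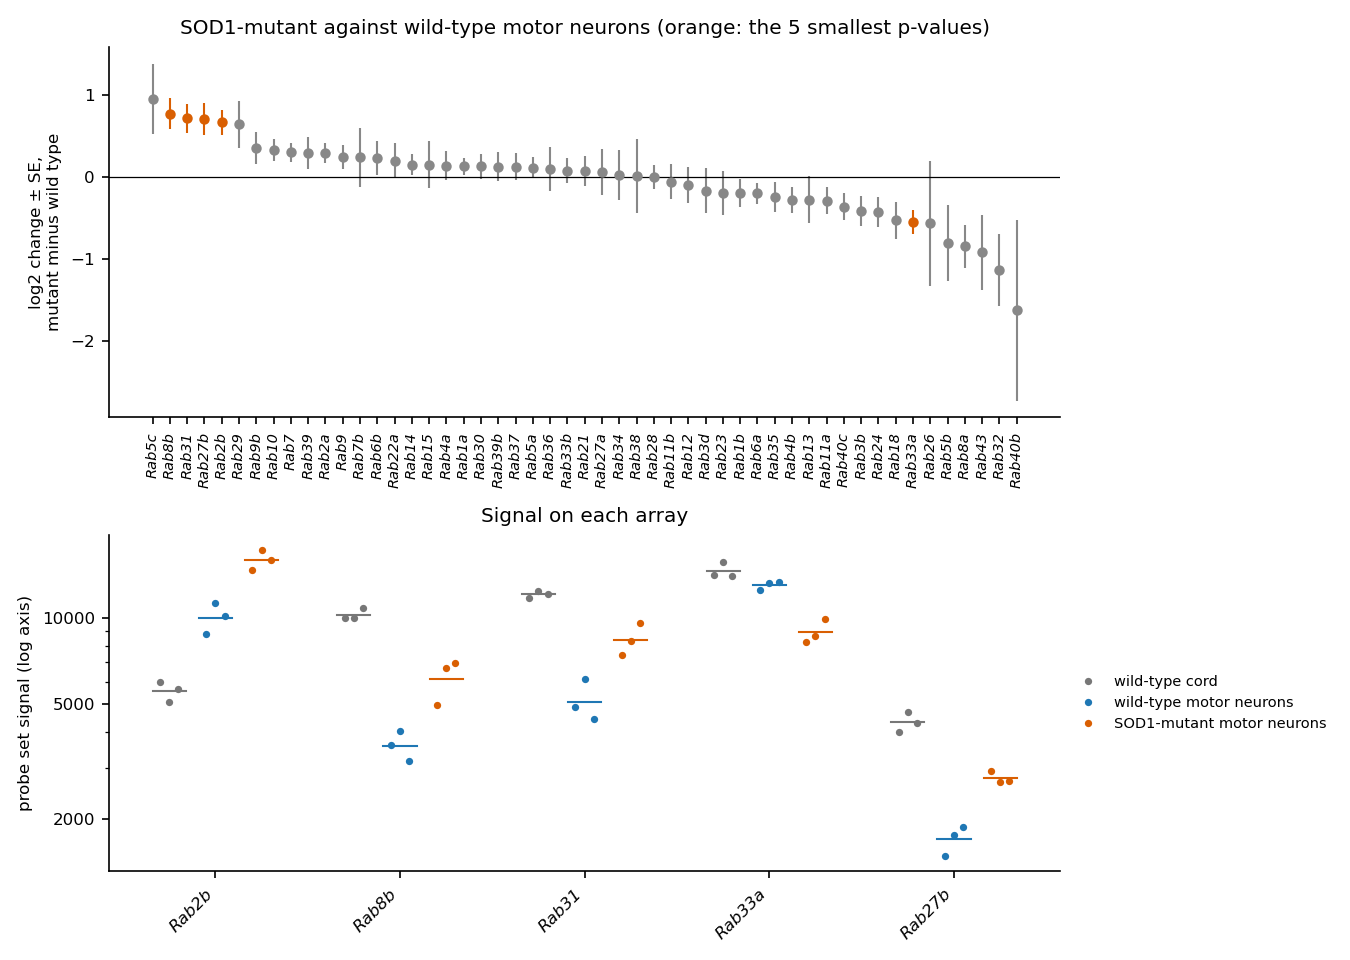
The upper plot shows on its vertical axis the log2 change, SOD1-mutant minus wild-type motor neurons, with its standard error for the 51 Rab genes, and the lower plot the signal on each of the 9 arrays, on a log axis, for the 5 genes of smallest p. Dots in the lower plot are arrays, 3 a group, and lines are geometric means. No gene was called on the 6 neuron arrays, and for Rab8b, Rab31 and Rab27b the mutant dots lie between those of cord and wild-type neurons.

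The mutant neurons were also set against cord, a comparison that shares its cord arrays with the first and its neuron arrays with the second. In it, 17 Rab genes were higher (33.3%, beside 28.4% of all genes) and 22 lower (43.1%, beside 35.3%), with 11 higher and 6 lower under all 3 scalings (beside 25.8% and 14.3%). Rab39 was at 3.10 (adjusted p = 5.57e-06), Rab3d at 1.99 (adjusted p = 0.00111), Rab3b at 1.98 (adjusted p = 4.02e-05), Rab2b at 1.51 (adjusted p = 1.38e-05) and Rab14 at 1.33 (adjusted p = 1.01e-05). These are values of the brightest probe sets. In the same comparison, 1 of 5 Rab2b probe sets was called higher and 3 lower, and 2 of 7 Rab14 probe sets higher and 2 lower. Among the falls, Rab7b was at -2.45 (adjusted p = 0.000242), Rab5b at -2.16 (adjusted p = 0.00153) and Rab43 at -1.91 (adjusted p = 0.00267). Rab34 was at -1.72 (adjusted p = 0.000714), Rab11b at -1.61 (adjusted p = 7.16e-05) and Rab5c at -1.61 (adjusted p = 0.000133). Rab43 was not called after centring, at -1.07 (adjusted p = 0.0624). Rab8b and Rab27b, at -0.73 (adjusted p = 0.00247) and -0.64 (adjusted p = 0.00247), were not called after centring, where they were 0.11 (adjusted p = 0.548) and 0.21 (adjusted p = 0.36). Rab9b was higher in mutant neurons than in cord at 0.48 (adjusted p = 0.0388), and Rab40b lower at -3.74 (adjusted p = 0.00136) with 1 of 3 mutant arrays above background. For these genes the wild-type neurons gave 0.13 and -2.12 without a call with the authors' scaling. Rab9b was called higher in wild-type neurons after centring, at 1.04 (adjusted p = 0.000119), and after quantile normalization, at 0.29 (adjusted p = 0.0301). Rab9, Rab32, Rab33a and Rab35 were likewise called against cord in mutant but not in wild-type neurons with the authors' scaling. Rab9b and Rab40b were not called between mutant and wild-type neurons, at 0.35 (adjusted p = 0.42) and -1.62 (adjusted p = 0.513).

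The machinery that loads, switches off and reads Rabs was described from 4 lists. Of the Rab cycle list, which prenylates Rabs and shuttles them on and off membranes, 7 of 8 genes were tested, and 3 were higher and 1 lower in wild-type motor neurons against cord, with a median log2 change of 0.28, beside -0.10 for all genes, of which 31.1% were higher and 36.1% lower. The escort proteins Chm and Chml, which present Rabs for prenylation, rose by 0.74 (adjusted p = 0.00133) and 1.14 (adjusted p = 9.34e-05). Gdi2, a GDP dissociation inhibitor, was higher by 0.73 (adjusted p = 0.000131) with the authors' scaling and at 0.21 (adjusted p = 0.13) after quantile normalization. Rabac1, a membrane receptor for prenylated Rabs, fell from 36632, 38208 and 35716 in cord to 15753, 15204 and 16320.1, a log2 change of -1.22 (adjusted p = 1.52e-06).

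Of 33 tested exchange factors, 11 were higher and 11 lower, shares near those of all genes (31.1% and 36.1%), with a median of -0.09. Rabgef1, the exchange factor of Rab5, rose from 3839, 3999 and 3676 to 14135, 18796 and 17294, a log2 change of 2.11 (adjusted p = 1.27e-06). C9orf72 and Trappc1, members of complexes listed as exchange factors, rose by 1.92 (adjusted p = 5.85e-07) and 1.78 (adjusted p = 6.59e-07). Rin2, another exchange factor of Rab5, was lower at -3.19 (adjusted p = 2.27e-05), Dennd4c, for Rab10, at -2.30 (adjusted p = 0.000192) and Dennd5a, for Rab39, at -1.56 (adjusted p = 3.23e-06). Of 30 tested GTPase-activating proteins, 7 were higher and 15 lower, with a median of -0.37, led by Evi5 at 1.67 (adjusted p = 3.07e-06), Tbc1d9 at 1.26 (adjusted p = 5.05e-05) and Tbc1d7 at 1.06 (adjusted p = 2.53e-05) on one side. On the other were Sgsm2 at -3.90 (adjusted p = 2.5e-05), above background on 1 wild-type neuron array, and Tbc1d12 at -1.61 (adjusted p = 1.89e-05).

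Of 41 tested effectors, 13 were higher and 11 lower (beside 31.1% and 36.1% of all genes), with a median of 0.19, beside -0.10 for all genes. Rilp, which ties Rab7 to dynein, rose from 1279.6, 1121 and 1214 to 4966, 4913 and 5114, a log2 change of 2.04 (adjusted p = 1.84e-06). Mical1 rose by 2.34 (adjusted p = 6.59e-05) and Rabep2, an effector of Rab5 and Rab4, by 1.88 (adjusted p = 5.77e-06). Mical3 was lower at -3.20 (adjusted p = 0.0006), with 2 of 3 wild-type neuron arrays above background, Fyco1, which ties Rab7 to kinesin, at -2.50 (adjusted p = 1.1e-05) and Rab11fip3, an effector of Rab11, at -2.17 (adjusted p = 0.000118). Under all 3 scalings 2 cycle genes, 11 exchange factors, 7 GTPase-activating proteins and 12 effectors were higher, and 1, 4, 2 and 6 were lower, beside 28.7% and 15.3% of all genes. Between mutant and wild-type neurons, limma called 0 of the 111 genes of the 4 lists, with 10 higher and 13 lower at an unadjusted p under 0.05 (beside 8.23% and 8.57% of all genes), and 2 higher and 4 lower when all 9 arrays were in 1 fit (beside 2.76% and 2.33%).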

How the data were processed

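The authors deposited 1 linear intensity value per probe set for each of 9 single-colour arrays. How intensity was computed from the scans is, in the sources used here, not given. Trimming 2% at each end, every array averages 2500. Groups came from the sample descriptions and replicate numbers from the titles. Members and gene lists were chosen with earlier results of these data known.

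After removal of 64 control probe sets, values were taken as log2(intensity + 20.3), where 20.3 is the 10th percentile. The filter kept the 27022 probe sets with a mean log2 value over the 3 groups beyond the 40th percentile, and a gene was read by its probe set of highest mean. Each comparison was fitted on its own 6 arrays with limma 3.58.1 in R 4.3.3 (lmFit, then eBayes with trend). Tests were two-sided, adjusted by Benjamini-Hochberg over all tested probe sets, at 0.05. The fits were tested on simulated data. Symbols came from the platform annotation, and all 57 matched GRCm38.p6 by symbol and by gene identifier. Summed marker signals add the brightest probe set of each marker.

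Values on every array were given by rule for the 6 largest rises and falls called under all 3 scalings, the 5 smallest p between neuron groups, genes with opposite probe sets, and Rab1a, Rab5a, Rab7, Rab11a, Rab6b, Rab27b and Rab3b. From the 4 machinery lists the rule took up to 3 rises and 3 falls among called members. The values on every array of Rab40b, Rab42, Rab18, Rabac1, Rabgef1 and Rilp, the 15 pairs of relatives, and the promoters and their motifs were chosen after values had been seen. Python 3.11.15 with matplotlib 3.10.9 drew the figures. The alternatives were quantile normalization, median centring, a filter at the 60th percentile or none, the pseudocount divided or multiplied by 4, a floor at background, all 9 arrays in 1 fit, no intensity trend, the replicate number as a block, averaging the probe sets of a gene, and leaving out each array.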

Additional observations from a re-analysis of the deposited data

How the results depend on the processing

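Of the 51 Rab genes, centring raised the count higher in wild-type motor neurons against cord from 16 to 28 and lowered the count lower from 22 to 6, and in mutant neurons against cord it raised the count higher from 17 to 25 and lowered the count lower from 22 to 6. Of all 27022 probe sets tested, 11599 were higher and 5157 lower after centring in mutant neurons against cord, where the authors' scaling gave 5925 and 10859. With probe sets of a gene averaged in place of the brightest, 10 were higher and 27 lower in wild-type and 11, in place of 17, higher and 30 lower in mutant neurons against cord. The shares of all genes were not taken with averaging, so these counts cannot be read as particular to Rabs. Between mutant and wild-type neurons, 4 were higher and 1 lower with all 9 arrays in 1 fit, and 1 and 1 with the replicate block, Rab2b (adjusted p = 0.0328) and Rab8a (adjusted p = 0.0499). The replicate block left 17 higher and 22 lower in wild-type and 16 and 22 in mutant neurons against cord. The labels do not say whether equal numbers pair the arrays. Same-number correlations of deviations ran from -0.003 to 0.031 in wild-type and from -0.043 to 0.017 in mutant neurons against cord. There, 2 and 1 of 6 arrays correlated best with their own number. Between mutant and wild-type neurons the correlations ran from 0.002 to 0.171, and 4 of 6 arrays correlated best with their own number. Leaving out each array gave 13 to 17 higher and 19 to 25 lower in wild-type neurons, 14 to 18 and 19 to 24 in mutant neurons against cord, and 0 and 0 between the neuron groups.

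Of the named genes in wild-type motor neurons against cord, 317 single values kept direction and call under an alternative, 15 lost the call, 1 gained it and 7 turned. With the mean of probe sets Rab2b was -0.57, Rab7 -0.98, Rab22a -0.70 and Rab2a -0.089, with quantile normalization Rab5a was -0.062 and Rab7 -0.23, and with centring Rab33a, not called at -0.16, was 0.75. Between mutant and wild-type neurons, 78 kept direction and side of the threshold, 6 gained the call and Rab2b turned to -0.10 with the mean of probe sets, where Rab31 was 0.11 in place of 0.71. The cause of these turns was not tested. The control 3′ to 5′ ratio in wild-type neurons against cord was 4.31 with Gapdh, 3.87 with Actb and 1.56 with the middle Gapdh probe set. The number of arrays, 3 a group, limits the precision, and 6 member genes were below the filter on mean signal.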
